A study of Mus musculus with 6 samples.

Results

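The 9 genes described here encode components and receptors of the complement system: the C1q chain genes C1qa, C1qb and C1qc, the convertase component genes C2, C3, C4b and Cfb, and the anaphylatoxin receptor genes C3ar1 and C5ar1. They were chosen by name from the 55401 genes of the count matrix, with earlier results of these data known. All 9 were among the 19554 genes with enough counts to be tested. The study asked how microglia of lupus-prone mice differ from those of control mice. The lpr mutation in MRL/lpr mice disrupts Fas, a death receptor gene, and these mice develop a lupus-like disease, and MRL/mpj mice are the control strain on the same MRL background without that mutation. Each strain had 3 libraries from untreated 6-week-old animals, made from brain cells taken through perfusion, enzymatic digestion, a Percoll gradient and magnetic selection for CD11b, a surface antigen that microglia share with other myeloid cells. The study counts its replicates as mice, but the labels do not say whether each library came from a single animal or from a pool, so the p-values measure the spread between these libraries, which may be technical.

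Complement is a cascade of proteins that tags targets for removal and calls in immune cells. In the classical pathway C1q, built from A, B and C chains, binds the target, and C4 and C2 then form the enzyme that cleaves C3, while in the alternative pathway factor B, the product of Cfb, takes part in a second C3-cleaving enzyme. The small fragments C3a and C5a act on the receptors C3aR and C5aR1. In the brain microglia are the main source of C1q, and C1q and C3 take part in the removal of synapses by microglia.

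Library totals ran from 45481609 to 49846634 counts, and 1 read pair appeared to be worth 4 counts. MRL/lpr 3 stood apart from the other MRL/lpr libraries, with the noncoding gene CT010467.1 taking 6.38% of its counts against 0.169% to 0.457% elsewhere, so results for the members are also given without it. The share of mitochondrial genes was 3.06% to 3.49% in MRL/lpr and 5.84% to 6.38% in MRL/mpj. Xist, the X-inactivation transcript of female cells, was counted 8886 to 11319 times per library in MRL/lpr and 27 to 38 times in MRL/mpj. The Y-linked gene Ddx3y had 3690 to 5720 and 5505 to 7559 counts, respectively, so Y-linked transcripts were present in every library, although the methods describe female mice. Sex and strain therefore cannot be told apart in any value below. Microglial markers were abundant in all libraries, with Csf1r, Tmem119 and P2ry12 among the 10 listed and a summed level of 22000 to 25000 CPM (counts scaled to a common library size with TMM factors) in MRL/lpr and 26300 to 26900 in MRL/mpj. Of that list 3 were lower in MRL/lpr, Fcrls and Gpr34 among them, 7 were not called, and none was at 0.

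In the CD11b-selected brain cells of MRL/lpr the genes of C3, C4, factor B and the C3a receptor were higher than in those of MRL/mpj. The genes of the C1q B and C chains were lower. C3, C4b, Cfb and C3ar1 rose and C1qb and C1qc fell at an adjusted p under 0.05 in edgeR's quasi-likelihood test, while C1qa, C2 and C5ar1 were not called. That is 4 of 9 higher and 2 of 9 lower, beside 11.1% and 9.06% of all genes tested, and 6 of 9 in either direction beside 20.2%. With an added minimum of 1 on the absolute log2 fold change, 3 members were higher (C3, C4b and Cfb) and 0 were lower, beside 4.67% and 3.66% of all genes (8.34% in either direction). The libraries of the strains did not overlap in CPM for 5 members that were higher and 2 that were lower in MRL/lpr, beside 19.6% and 19.4% of all genes (39.0% in either direction). The median log2 fold change (MRL/lpr over MRL/mpj) was 0.24 over the members and -0.01 over all genes tested. In bulk libraries such as these, fewer cells of a type and less RNA per cell cannot be told apart.

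**Figure D1:**
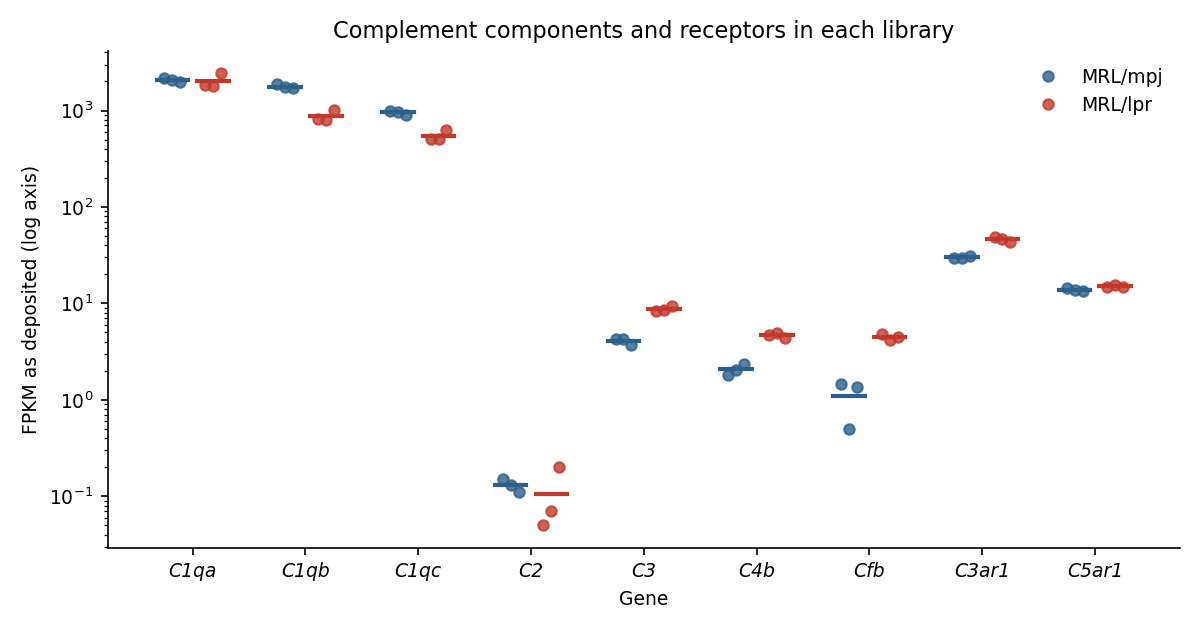
Deposited FPKM of each member on a log axis, with 1 point per library and a bar at the mean of each strain (n = 3). The C1q chain genes sit far above the other members, C3, C4b, Cfb and C3ar1 lie higher in every MRL/lpr library than in any MRL/mpj library, and C1qb and C1qc lie lower.

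The 3 C1q chain genes lie side by side on the minus strand of chromosome 4, within 18675 bases of GRCm38. C1qa (136895917 to 136898803), which encodes the A chain, had 2208, 2138 and 3065 CPM in MRL/lpr 1 to 3 and 2430, 2300 and 2198 CPM in MRL/mpj 1 to 3. The groups overlapped, with MRL/lpr 3 above all other libraries and MRL/lpr 1 and 2 near the lowest MRL/mpj value. Its log2 fold change was 0.10 (SE 0.13, 95% interval -0.22 to 0.41, adjusted p = 0.691 in edgeR), and the sign turned without MRL/lpr 3, to -0.08.

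C1qb (136880129 to 136886187), the B chain gene, had 1023, 1001 and 1333 CPM in the MRL/lpr libraries. The MRL/mpj libraries had 2184, 2038 and 1982 CPM. Every MRL/lpr library lay below every MRL/mpj library, with MRL/lpr 3 the highest of its group. The means were 1119 ± 186 and 2068 ± 104 CPM (SD, n = 3), and the level fell by 0.89 on the log2 scale (SE 0.11, edgeR adjusted p = 0.000461), which is 1.85-fold lower. Without MRL/lpr 3 the log2 fold change was -1.03.

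C1qc (136889804 to 136893065) encodes the C chain. It had 1110, 1136 and 1479 CPM in MRL/lpr and 2077, 1988 and 1886 CPM in MRL/mpj. These groups did not overlap either, and MRL/lpr 3 was again the highest of its group. The C1qc level fell by 0.68 on the log2 scale (SE 0.11, edgeR adjusted p = 0.0021), or 1.60-fold, and the log2 fold change without MRL/lpr 3 was -0.82.

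C1qb and C1qc moved together, and the stretches before their starts are shown so that their letters can be set side by side. They come from RefSeq on GRCm38.p6, which had an entry for 5 of the 9 members (C1qb, C1qc, C3, C3ar1 and C5ar1), and cover up to 250 bases before the RefSeq start. Motifs were searched in the whole 250 bases of each, and bases inside the GENCODE gene are left out of what is printed, which leaves 99 bases for C1qc. Both are written 5′ to 3′ on the minus strand, at chr4:136886201-136886450 and chr4:136893066-136893164, and capitals mark the core motif of PU.1, a transcription factor of myeloid cells, GAGGAA read on either strand.
C1qb: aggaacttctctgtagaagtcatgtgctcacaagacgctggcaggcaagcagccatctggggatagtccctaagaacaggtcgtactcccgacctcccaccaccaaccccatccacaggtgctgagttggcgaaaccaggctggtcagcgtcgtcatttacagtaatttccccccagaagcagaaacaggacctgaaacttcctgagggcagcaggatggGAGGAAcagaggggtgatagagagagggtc
C1qc: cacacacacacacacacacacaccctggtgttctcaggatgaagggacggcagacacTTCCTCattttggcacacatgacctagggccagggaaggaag
The motif ended 25 bases before the RefSeq start of C1qb. In C1qc it was read on the other strand, as TTCCTC, between 193 and 188 bases before the RefSeq start. Of 32851 mouse promoters searched over the same 250 bases, 23.3% held it, so a match describes these letters and no more. Other motifs searched on both strands were the interferon-response form, GAAA followed after 2 bases by GAAA (in 2.98% of promoters), the STAT form TTCNNNGAA (7.02%) and the AP-1 form TGANTCA (6.75%), and none of them was in the 250 bases of either gene.

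The unequal changes of the chain genes showed up as a change in their proportions within each library, a measure that does not depend on the scaling between libraries. C1qa made up 50.86%, 50.01% and 52.15% of the summed C1q counts of MRL/lpr 1 to 3, and 36.31%, 36.35% and 36.23% of those of MRL/mpj 1 to 3. The C1qb share was 23.2% ± 0.47 in MRL/lpr and 32.5% ± 0.25 in MRL/mpj (SD, n = 3). For C1qc the shares were 25.8% ± 0.72 and 31.2% ± 0.21. The MRL/lpr libraries thus held a larger C1qa share and smaller C1qb and C1qc shares than any MRL/mpj library, with differences of 14.7, -9.29 and -5.42 percentage points, and of 14.1, -9.01 and -5.12 without MRL/lpr 3. For each share the two-sided exact permutation test gave p = 0.1, the smallest p that 3 libraries against 3 allow. The Wilson 95% intervals of single shares were at most 0.22 percentage points to either side and cover counting error only, with 4 counts per read pair not taken into account.

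**Figure D2:**
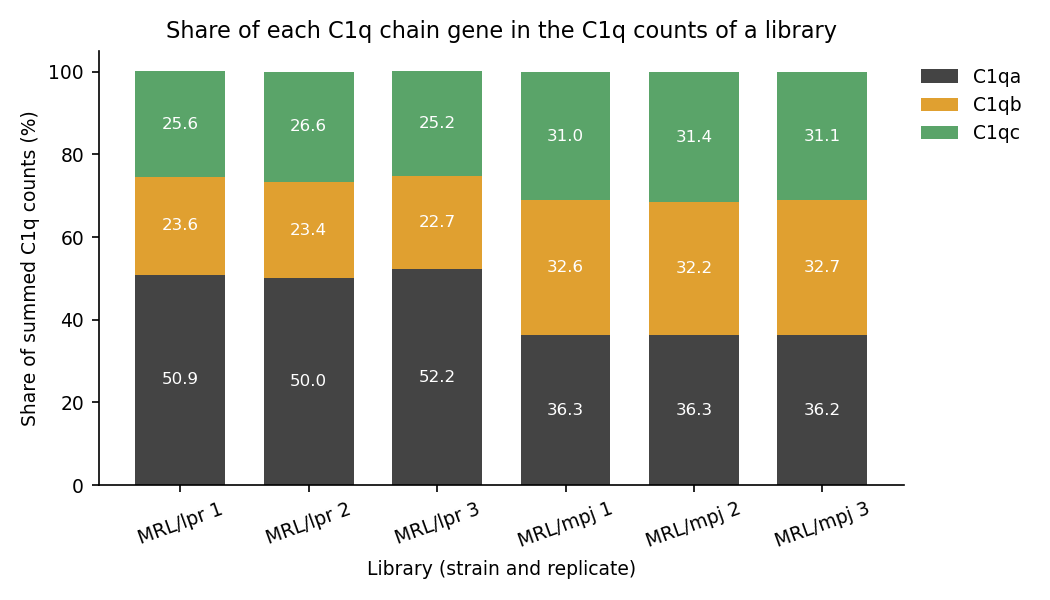
Percentage of each C1q chain gene in the summed counts of C1qa, C1qb and C1qc, with 1 bar per library. C1qa takes 50.01% to 52.15% in MRL/lpr and 36.23% to 36.35% in MRL/mpj.

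Put as ratios of counts, C1qa over C1qb was 2.16, 2.13 and 2.30 in MRL/lpr and 1.11, 1.13 and 1.11 in MRL/mpj. C1qb over C1qc was 0.922, 0.882 and 0.901 against 1.05, 1.03 and 1.05. The B and C chain genes kept a closer ratio between strains than either did with C1qa. The summed CPM of the chain genes was 4831 ± 906 in MRL/lpr and 6361 ± 314 in MRL/mpj, a ratio of 0.759 (exact permutation p = 0.1). No 150-base stretch of a C1q transcript occurred exactly in an annotated transcript of another gene. Inexact or unannotated copies were not searched. Border macrophages also make C1q, and their summed markers were lower in MRL/lpr, at 464 to 504 CPM against 781 to 806 CPM. Of these 7 markers 3 were lower (Mrc1, Cbr2 and Stab1), 0 were higher and none was at 0. Most of the sum was Stab1, with means of 426.8 CPM in MRL/lpr and 733.9 CPM in MRL/mpj. Cd163 went the other way without overlap, with means of 7.13 and 4.63 CPM, but was not called. The part of border macrophages in the C1q values was not tested.

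C3, the protein on which all complement pathways converge, had its gene at 57203970 to 57228136 on the minus strand of chromosome 17. The MRL/lpr libraries had 48.8, 50.4 and 59.3 CPM and the MRL/mpj libraries 23.5, 23.7 and 20.5 CPM. The lowest MRL/lpr library was above the highest MRL/mpj library by a wide margin. C3 rose by 1.23 on the log2 scale (SE 0.11, edgeR adjusted p = 5.17e-05), or 2.34-fold, and the log2 fold change was 1.14 without MRL/lpr 3. The stretch before its RefSeq start, chr17:57228137-57228386 on the minus strand of GRCm38.p6, is shown because C3 is the central member that rose.
C3: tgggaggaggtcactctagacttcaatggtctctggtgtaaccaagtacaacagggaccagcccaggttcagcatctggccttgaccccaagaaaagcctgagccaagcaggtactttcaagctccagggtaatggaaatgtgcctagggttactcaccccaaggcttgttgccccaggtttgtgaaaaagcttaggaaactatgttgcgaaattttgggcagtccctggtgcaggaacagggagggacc
It held none of the 4 motifs searched, and so has no capitals. That says only that these letters are not in this window.

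C4b, Cfb and C2 lie within 169886 bases of one another on chromosome 17, in the class III part of the major histocompatibility complex. C4b (34728380 to 34743882) encodes complement C4. It had 30.6, 32.1 and 30.3 CPM in MRL/lpr and 11.1, 12.6 and 14.4 CPM in MRL/mpj. The MRL/lpr libraries were close together and all above the MRL/mpj libraries. C4b rose by 1.29 on the log2 scale (SE 0.12, edgeR adjusted p = 6.58e-05), or 2.44-fold, with 1.31 when MRL/lpr 3 was left out. Of its 150-base transcript stretches 7.48% also occur in the neighbouring copy C4a, so some reads could go to either gene. Summed over both genes the log2 fold change was 1.26 (SE 0.10, edgeR adjusted p = 2.25e-05). Astrocytes also make C4, and their summed markers were at 117 to 164 CPM in MRL/lpr and 196 to 203 CPM in MRL/mpj. Of these 8 markers 1 was lower (Slc1a3), 0 were higher and none was at 0. Slc1a3 alone had means of 66.1 and 130.1 CPM, in that order, and made up most of the difference in the sum. The strains did not overlap for 2 markers that were higher in MRL/lpr and 3 that were lower. The part of astrocytes in the C4b values was not tested.

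Cfb (34856374 to 34862518), the gene of factor B, had the largest fold change of the members. MRL/lpr 1 to 3 had 731, 631 and 640 Cfb counts, and MRL/mpj 1 to 3 had 226, 77 and 218. The MRL/lpr libraries lay above the MRL/mpj libraries, among which MRL/mpj 2 was far below the other two. Cfb rose by 2.13 on the log2 scale (SE 0.35, 95% interval 1.31 to 2.95, edgeR adjusted p = 0.00402), or 4.37-fold. Without MRL/mpj 2 the log2 fold change was 1.78, and without MRL/lpr 3 it was 2.10.

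The Cfb transcripts overlap Gm20547, an annotated gene model that runs through C2 and Cfb, and 61.8% of the 150-base stretches of Cfb occur in it. Gm20547 had 17, 42 and 3 counts in MRL/lpr and 0, 142 and 11 in MRL/mpj, so the MRL/mpj library with the fewest Cfb counts had the most Gm20547 counts. The sums of both genes were 748, 673 and 643 counts in MRL/lpr and 226, 219 and 229 in MRL/mpj. Among the MRL/mpj libraries the SD fell from 48.3% of the mean for Cfb alone to 2.28% for the sum. For the sum the log2 fold change was 1.79 (SE 0.13, 95% interval 1.49 to 2.09, edgeR adjusted p = 1.91e-05). Summing was chosen after the counts were seen.

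**Figure D3:**
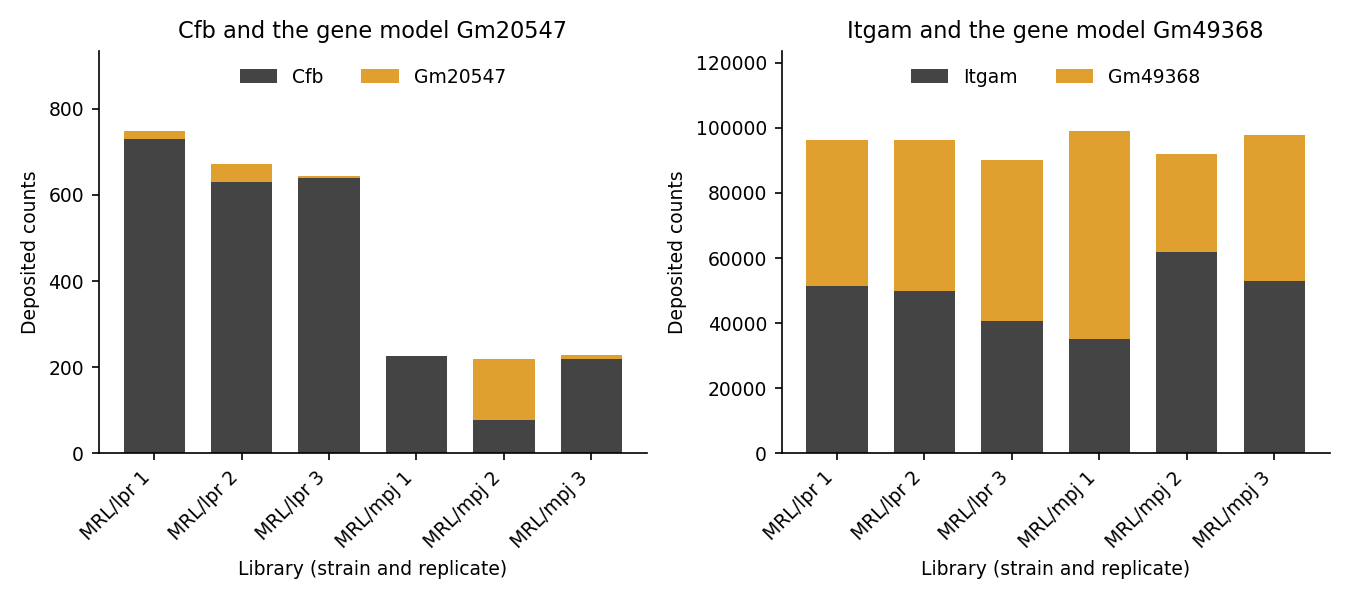
Deposited counts per library of Cfb with the overlapping gene model Gm20547 (left) and of Itgam, the gene of CD11b, with the overlapping gene model Gm49368 (right), stacked. The sums vary less within a strain than the single genes, and the summed Cfb bars of MRL/lpr (643 to 748 counts) stand above those of MRL/mpj (219 to 229 counts).

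C2 (34862604 to 34898265), which encodes the protease of the classical C3 convertase, was almost undetected. It had 12, 17 and 42 counts in MRL/lpr and 33, 28 and 24 in MRL/mpj. The groups overlapped, and at this depth a difference was not detectable. The log2 fold change was -0.04 with a 95% interval of -1.52 to 1.43 (edgeR adjusted p = 0.978), and it was -0.84 without MRL/lpr 3 (edgeR adjusted p = 0.463). Of its 150-base stretches 32.7% occur in Gm20547, which makes these few counts uncertain.

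Of the anaphylatoxin receptors, C3ar1 rose and C5ar1 did not pass the threshold. C3ar1 (chromosome 6, 122847138 to 122856161, minus strand), the receptor for C3a, had 241.7, 229.8 and 226.2 CPM in MRL/lpr and 138.0, 136.6 and 142.3 CPM in MRL/mpj. The strains were well apart and the libraries of each close together. C3ar1 rose by 0.74 on the log2 scale (SE 0.06, edgeR adjusted p = 3.45e-05), or 1.67-fold, and by 0.77 without MRL/lpr 3. The stretch before its start, chr6:122856162-122856407 on the minus strand of GRCm38.p6, is shown for its AP-1 form, in capitals, the only searched motif found in it.
C3ar1: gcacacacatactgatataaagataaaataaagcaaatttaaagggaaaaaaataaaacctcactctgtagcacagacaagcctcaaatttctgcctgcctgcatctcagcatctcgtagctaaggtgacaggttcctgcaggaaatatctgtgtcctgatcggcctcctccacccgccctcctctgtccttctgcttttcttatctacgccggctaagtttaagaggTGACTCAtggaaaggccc
The AP-1 form TGACTCA lay 22 to 16 bases before the RefSeq start. AP-1 is a family of transcription factors of activated cells, and binding was not measured here.

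C5ar1 (chromosome 7, 16246743 to 16259540, minus strand), the receptor for C5a, had 44.0, 45.6 and 45.9 CPM in MRL/lpr and 39.7, 37.7 and 36.9 CPM in MRL/mpj. The groups did not overlap, but they were close. The log2 fold change was 0.24 (SE 0.08, 95% interval 0.07 to 0.42), with an edgeR adjusted p of 0.058, and it was 0.24 without MRL/lpr 3 as well. The 250 bases searched before its RefSeq start, 202 of them inside the GENCODE gene, held none of the 4 motifs, and they are not printed. Within a library, C3ar1 counts were 5.49, 5.04 and 4.93 times those of C5ar1 in MRL/lpr and 3.48, 3.62 and 3.85 times in MRL/mpj (exact permutation p = 0.1). All MRL/lpr ratios exceeded all MRL/mpj ratios. The gene of the ligand precursor C5, Hc, had 0 to 14 counts per library, too few to be tested.

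Levels can be compared between genes only per length, and for this the deposited FPKM (fragments scaled by gene length and sequencing depth) were used. In MRL/mpj the order was C1qa at 2066 ± 103, C1qb at 1769 ± 88.1 and C1qc at 956 ± 45.7 FPKM (SD, n = 3). C3ar1 followed at 30.04 ± 0.63, C5ar1 at 13.8 ± 0.50, C3 at 4.08 ± 0.33, C4b at 2.07 ± 0.27 and Cfb at 1.11 ± 0.53 FPKM. C2 was last, at 0.13 ± 0.02 FPKM. Every neighbouring pair in that order was further apart than its SDs. In MRL/lpr the C1q genes were again on top, with C1qa at 2024 ± 353, C1qb at 877 ± 116 and C1qc at 548 ± 72.3 FPKM. C3ar1 stood at 46.3 ± 2.81, C5ar1 at 15.03 ± 0.38 and C3 at 8.76 ± 0.65 FPKM. C4b (4.66 ± 0.26) and Cfb (4.46 ± 0.34) did not differ beyond their spread there, and C2 was at 0.11 ± 0.081 FPKM. By mean FPKM over all libraries C1qa ranked 19, C1qb 31 and C1qc 56 among all genes, C3ar1 915, and C3, C4b and Cfb 5722 to 9174.

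Of 51 other complement genes listed by role, 33 could be tested, 7 had too few counts and 11 had none in any library. Among the 33, 4 were higher and 8 lower in MRL/lpr (edgeR adjusted p under 0.05), beside 11.1% and 9.06% of all genes tested. That is 12 of 33 in either direction beside 20.2%, and 21 were not called, with a median log2 fold change of 0.00. The counts by role given below stand beside the same shares of all genes tested. Members and list differed in the direction of most calls, but both were chosen with earlier results of these data known. The contrast was not tested.

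**Figure D4:**
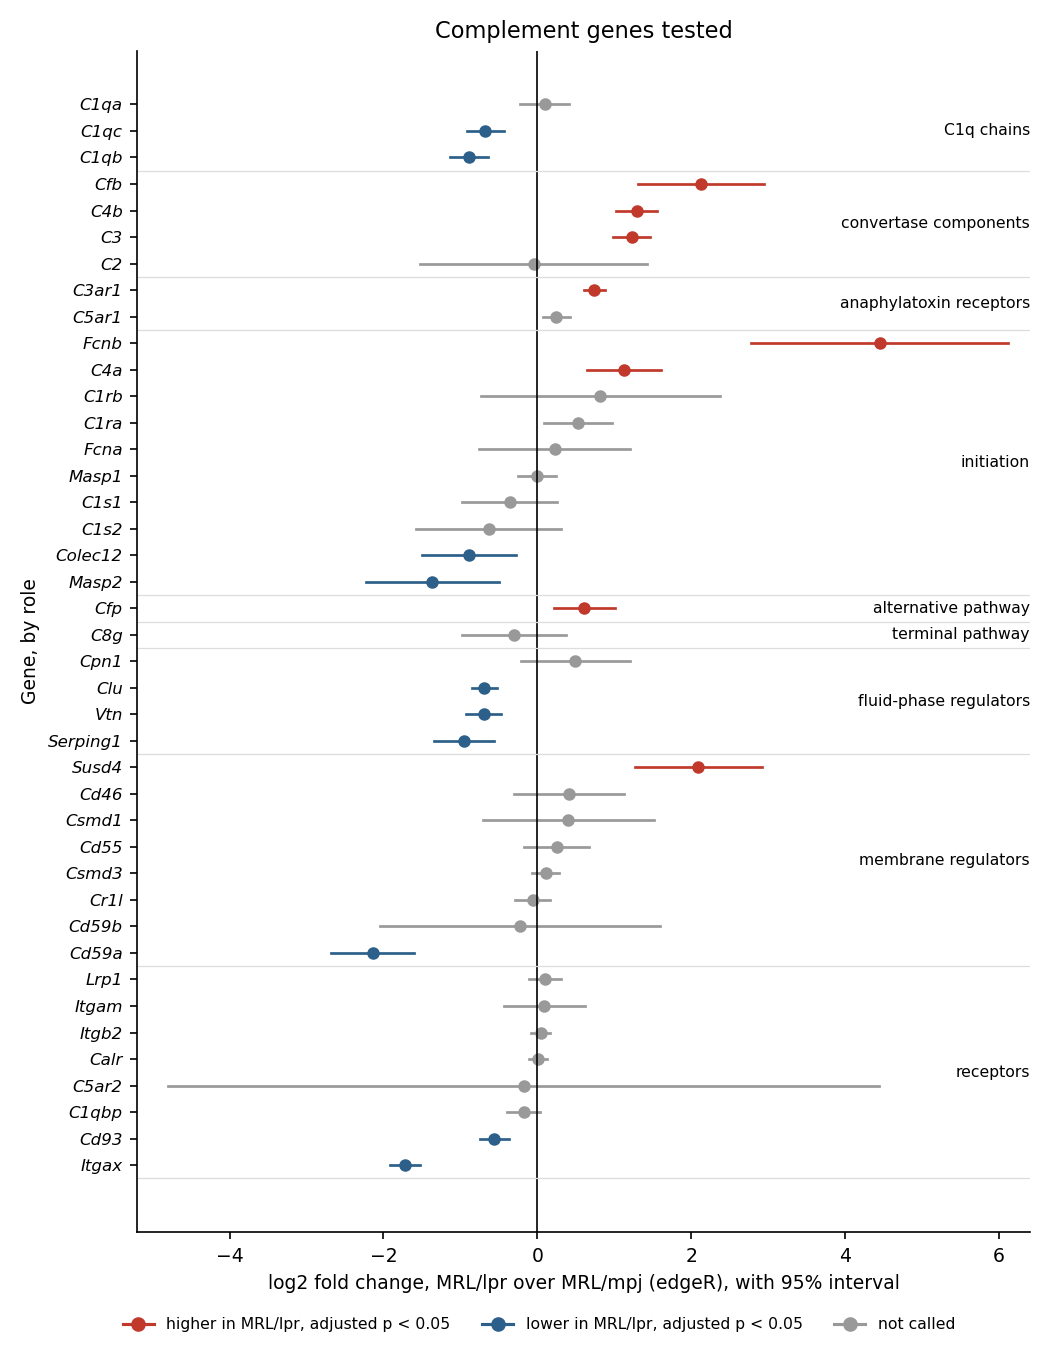
Log2 fold change (MRL/lpr over MRL/mpj, edgeR) of the 9 members and of other complement genes tested, by role, with 95% intervals and n = 3 libraries per strain. The called convertase and receptor members lie right of 0 and the called C1q members left of 0, and 3 fluid-phase regulators were called lower.

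Among 10 initiation genes tested, Fcnb and C4a rose and Masp2 and Colec12 fell. Fcnb, which encodes the recognition protein ficolin B of myeloid cells, had 129, 112 and 148 counts in MRL/lpr and 8, 0 and 12 in MRL/mpj. Its log2 fold change was 4.45 (SE 0.74, edgeR adjusted p = 0.00266). The size rests on few MRL/mpj counts, with 5.15 without MRL/mpj 3, 3.88 as the lowest value when other libraries were left out, and 1.38 with limma on log2(FPKM + 1). Neutrophils make ficolin B, and their 6 markers summed to 563 to 642 CPM in MRL/lpr and 436 to 497 CPM in MRL/mpj, with 3 higher (S100a8, Ngp and Retnlg), 0 lower and none at 0, and their part was not tested. C4a had a log2 fold change of 1.13 (edgeR adjusted p = 0.00502). Masp2, a protease of the lectin pathway, fell by 1.37 (edgeR adjusted p = 0.0337) and Colec12, a collectin, fell by 0.89 (edgeR adjusted p = 0.0468) on the log2 scale. The Masp2 call was lost in 4 of the 18 alternative fits and the Colec12 call in 8, and 50.1% of the Masp2 stretches lie opposite a gene on the other strand. The proteases that act with C1q were not called, with log2 fold changes of 0.53 for C1ra, 0.82 for C1rb, -0.36 for C1s1 and -0.63 for C1s2. C1ra and C1rb are near-identical copies in part, and 26.3% of the C1ra stretches occur in C1rb.

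Properdin, which stabilizes the alternative pathway convertase, is the product of Cfp. It was higher by 0.61 on the log2 scale (edgeR adjusted p = 0.0353), a call lost in 8 alternatives. Factor D, the protease that cleaves factor B (Cfd), had 0 to 10 counts per library and was not tested. Of 7 terminal pathway genes only C8g could be tested and was not called (log2 fold change -0.31).

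Fluid-phase regulators were lower or not called. Serping1, the C1 inhibitor, fell by 0.95 on the log2 scale (SE 0.17, edgeR adjusted p = 0.00415), from 412 to 494 counts in MRL/mpj to 190 to 220 in MRL/lpr. Clu, whose product clusterin blocks the terminal complex, fell by 0.69 (SE 0.07, edgeR adjusted p = 0.000149), and Vtn, vitronectin, fell by 0.70 (SE 0.10, edgeR adjusted p = 0.00113). In none of these genes did the strains overlap. The 6 ependymal and choroid plexus markers summed to 343 to 358 CPM in MRL/lpr and 1010 to 1090 CPM in MRL/mpj. Most of the sum was Ttr, with means of 301.6 CPM in MRL/lpr and 942.0 CPM in MRL/mpj. Of the 6 markers 3 were lower (Ttr, Kl and Folr1), 0 were higher and none was at 0. Foxj1, Aqp1 and Ccdc153 were not called, with log2 fold changes of -0.43, -0.80 and 0.33. The part of these cells in the regulators' values was not tested.

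Of 8 membrane regulators tested, Susd4 rose and Cd59a fell. Cd59a, which protects cells from the membrane attack complex, had 188, 100 and 138 counts in MRL/lpr and 658, 808 and 657 in MRL/mpj. It fell by 2.14 on the log2 scale (SE 0.24, edgeR adjusted p = 0.000232), or 4.41-fold, the largest decrease of the complement genes tested. Susd4, a complement inhibitor with sushi domains, had 289, 619 and 480 counts against 175, 113 and 80. It rose by 2.09 (SE 0.36, edgeR adjusted p = 0.00371). Csmd3 and Cr1l had log2 fold changes of 0.11 and -0.06 and were not called.

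Among 8 further receptors tested, Itgax and Cd93 fell. Itgax, the CD11c chain of complement receptor 4, had 18.97, 18.7 and 20.9 CPM in MRL/lpr and 61.9, 65.5 and 65.5 CPM in MRL/mpj, far apart. It fell by 1.72 on the log2 scale (SE 0.09, edgeR adjusted p = 1.95e-06). Cd93 fell by 0.56 (SE 0.08, edgeR adjusted p = 0.00143). Itgam, the CD11b chain of complement receptor 3, is the antigen used for selection and checks the preparation only. Its log2 fold change was 0.09, and 0.15 (edgeR adjusted p = 0.0902) when it was summed with the overlapping model Gm49368. Itgb2, the beta chain that pairs with either, was not called, at 0.05.

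Over the 6 libraries, the 3 genes of mean CPM of at least 10 whose log2 CPM followed the mean of the C1q chain genes most closely were Med22 (Pearson r = 0.9996), Tmem86a (r = 0.996) and Adgrg1 (r = 0.9959), of 9295 genes. For C3 they were Fcgr1 (r = 0.9989), Agap2 (r = 0.9988) and Capg (r = 0.9987), of 9297 genes. All share the same 6 libraries and the difference between strains, and the values are descriptions. Adgrg1 is an adhesion receptor gene of microglia and had 745 to 956 CPM in MRL/lpr and 1050 to 1120 CPM in MRL/mpj. Fcgr1, the gene of the high-affinity Fc receptor for IgG, had 370 to 403 CPM and 269 to 284 CPM, in that order.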

How the data were processed

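RNA from CD11b-selected brain cells of 3 MRL/lpr and 3 MRL/mpj libraries was measured. As deposited, the counts are unscaled whole numbers for each gene. The authors also deposited FPKM, which are scaled for gene length and depth. The submitters' processing notes name cutadapt 1.9.3, HISAT2 2.0.4, Cufflinks, Cuffdiff 2.2.1 and GRCm38, and the methods name DESeq2 for testing. The counting tool, its annotation and its use of strand are not given in the sources used here. The labels describe rRNA depletion and the methods mRNA purification. GENCODE M21 matched 55141 of 55401 gene identifiers.

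Counts were filtered with filterByExpr (minimum count 10, minimum total 15), scaled by TMM and tested over all genes with the robust quasi-likelihood test of edgeR 4.0.16 (R 4.3.3) and Benjamini-Hochberg adjustment, without covariates. The common biological coefficient of variation was 0.26. Replicate numbers did not pair the libraries. Alternatives were DESeq2 1.42.0, limma 3.58.1 on log2 of FPKM plus a pseudocount of 1 or 0.1, other scalings and filters, counts divided by 4, a replicate block and each library left out. The fits were also run on simulated data in which every gene had the same dispersion. That setting is simpler than these data, and no result here rests on it. Members and lists were chosen with earlier results of these data known. Named are the members, called genes of the complement list and within 100000 bases of a member, listed markers and the genes of most similar pattern. Some genes that this rule covers are not reported here.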

Additional observations from a re-analysis of the deposited data

How the results depend on the processing

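Across 18 alternatives 4 to 5 members were higher and 2 lower. The fifth was C5ar1, at CPM of at least 1 in at least 3 libraries (edgeR adjusted p = 0.0421) and with counts divided by 4 (0.0437). C2 got no value under those 2 settings. Among the other complement genes 3 to 5 were higher and 6 to 8 lower. Scaling by library size only moved the median log2 fold change of all genes to -0.13 and gave -0.03 for C1qa, -0.03 for Itgam and -0.08 for Itgb2. With limma on FPKM, C1qa was at -0.04 with either pseudocount, Itgb2 at -0.07 and -0.08, and C5ar2 at 0.33 and 1.52. Log2 fold changes also turned for C1qa without MRL/lpr 3 (-0.08), for C2 without MRL/lpr 1 (0.30), MRL/lpr 2 (0.18) or MRL/mpj 1 (0.08), for Cr1l without MRL/lpr 3 or MRL/mpj 3 (0.01 each), for Itgam without MRL/mpj 1 (-0.11) and for C5ar2 without MRL/mpj 2 (4.39). Over all single libraries left out, the ranges were -0.08 to 0.19 for C1qa, -0.84 to 0.30 for C2, -0.14 to 0.01 for Cr1l, -0.11 to 0.29 for Itgam and -0.75 to 4.39 for C5ar2. Of these only C5ar2 without MRL/mpj 2 passed the threshold. C1ra passed it without MRL/lpr 1 (0.69, edgeR adjusted p = 0.0408). Same-numbered libraries of the strains had correlations of deviations of -0.0626, -0.0405 and -0.0837, so the numbers did not pair them. A replicate block left 4 members higher and 2 lower, with C1qb at -0.90 and Cfb at 2.24, lost the calls of Colec12, Cfp, Ehmt2 and Clec4a3, and turned C5ar2 to 2.45 without a call. Leaving out single libraries gave differences in share of 14.1 to 15.2 percentage points for C1qa, -9.46 to -9.01 for C1qb and -5.82 to -5.12 for C1qc, and shares of FPKM gave -11.4 for C1qb and -4.02 for C1qc. Of the genes within 100000 bases, 8 to 11 were higher and 0 to 2 lower when single libraries were left out, and 5 were higher and 0 lower within 50000 bases. The cause of these shifts was not tested. C2, Hc, Cfd and most terminal components had few or no counts, and whether depth or low expression limited them was not tested. With 3 libraries per strain, exact tests could not give a p under 0.1.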

Other observations

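The second C5a receptor gene, C5ar2, had 318, 244 and 223 counts in MRL/lpr and 19, 954 and 9 in MRL/mpj, so that 1 library decided its value. Its log2 fold change was -0.18 (SE 1.73, edgeR adjusted p = 0.964) with all libraries and 4.39 (edgeR adjusted p = 0.000318) without MRL/mpj 2.

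Of 45 tested genes within 100000 bases of a member, 9 were higher and 1 lower in MRL/lpr, beside 11.1% higher and 9.06% lower of all genes tested. In either direction that is 22.2% against 20.2%. Around C2, Cfb and C4b in the major histocompatibility complex, 6 of 23 were higher and 0 lower, beside the same shares: C4a, the histone methyltransferase gene Ehmt2 (log2 fold change 0.29), the heat shock protein genes Hspa1a (1.15), Hspa1b (0.73) and Hspa1l (0.73), and Gm10501 (1.34). Skiv2l, Dxo and Stk19, which lie close to Cfb, were not called, at 0.00, 0.16 and 0.24. Near C3ar1 the glucose transporter gene Slc2a3 was higher (0.82) and the lectin receptor gene Clec4a3 lower (-0.34). Beside C5ar1, Bbc3 (0.72), a gene of the apoptotic BCL2 family, and Ccdc9 (0.61) were higher. The calls of Ehmt2 and Clec4a3 were lost in 7 and 8 of 18 alternative fits. None of the 2 genes tested near the C1q cluster and none of the 5 near C3 was called.

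T cell markers were low but higher in MRL/lpr, with 5 of 6 called higher (Cd3e, Cd3g, Cd2, Lck and Trbc2), 0 lower and a summed level of 14.0 to 20.2 CPM against 3.38 to 4.57 CPM. B cell markers summed to no more than 10.5 CPM in any library, and none of 4 tested markers was called, with Cr2, the gene of complement receptor 2, at 0 in every library. Monocyte markers summed to 569 to 650 and 564 to 591 CPM, with 2 of 6 higher (Plac8 and Vcan) and 1 lower (Chil3). Most of that sum was Fn1, which was not called, with means of 530.9 CPM in MRL/lpr and 497.4 CPM in MRL/mpj. The log2 fold changes were 2.22 for Plac8, 0.96 for Vcan and -1.59 for Chil3. Neuronal markers were at 14.8 to 18.4 and 30.5 to 33.7 CPM, with 2 of 7 lower, oligodendrocyte markers at 130 to 153 and 164 to 195 CPM, with 2 of 6 lower, and endothelial markers at 1580 to 1760 and 1500 to 1530 CPM, with 2 of 6 higher and 1 lower.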
